A study of Homo sapiens with 9 samples.

Results

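Voltage-gated, inward-rectifier and related potassium, sodium and calcium channel genes were examined in OVCAR3 cells in which CTCFL, also called BORIS, was raised or lowered. The set was chosen by gene symbol. It holds every protein-coding gene whose symbol begins with KCNA to KCNV, with SCN and a digit, or with CACNA, CACNB, CACNG or CACNA2D and a digit. This gave 136 of the 60660 genes in the table. The symbols were chosen without the measured values, although earlier results of these data were known when the set was proposed. CTCFL is a germline paralog of the insulator protein CTCF and is found in several cancers. OVCAR3 is a human epithelial ovarian cancer cell line.

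The 9 libraries fall into 3 groups of 3, all of OVCAR3 cells. Control cells carry no CTCFL treatment in the labels, and the methods describe them as transfected with a LacZ plasmid. CTCFL-OE cells received 2 µg of the plasmid pCpGfree-vitroHBORIS, which encodes CTCFL, and were harvested 48 h later. CTCFL-KD cells received siRNAs against CTCFL. The treatments were transient and were made in 1 cell line, and each biological replicate of the plasmid transfections pooled several technical replicates. The CTCFL-KD cells were taken from an earlier experiment, and both comparisons used the plasmid-transfected Control cells, so the knockdown and the experiment that produced it cannot be told apart.

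Ion channels of these families are membrane proteins that open a pore for one kind of ion. Voltage-gated potassium, sodium and calcium channels open when the membrane depolarises, inward rectifiers pass potassium mainly near and below the resting potential, and two-pore-domain channels carry the potassium leak that sets that potential. In epithelia, where action potentials are absent, potassium channels support ion and fluid transport and cell volume, and calcium channels can admit calcium as a signal.

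CTCFL itself was low in every Control library, with counts of 6, 9 and 10. It had counts of 36, 34 and 72 after overexpression and 0, 1 and 0 after knockdown. Overexpression raised CTCFL by a log2 fold change of 2.73 ± 0.48, adjusted p = 0.0287. With 1 count over the 3 CTCFL-KD libraries, the ratio to Control was 0.0567, with a 95% counting interval from 0.00138 to 0.346 (adjusted p = 0.0162). Total counts per library ranged from 14332622 to 24490080. A count of 0 allows up to 3 counts, which came to between 0.117 and 0.271 CPM (counts divided by the scaled library size and multiplied by 1e6). Library CTCFL-KD replicate 1 stood apart, with the lowest scaling factor (0.775) and a Spearman correlation of -0.52 between gene length and its ratio to its group, against 0.52 and 0.48 in the other CTCFL-KD libraries. Control replicate 1 had -0.33 and the other Control libraries 0.17 each. All 12 serous ovarian carcinoma markers had at least 1 TPM (counts per exonic length, scaled to the same sum in every library) in every group. In CTCFL-KD 8 of the 12 were called higher (over 2-fold, adjusted p under 0.05), among them MUC16 and FOLR1 (log2 fold changes 2.84 and 2.79), and KRT7 was called lower (-1.12). Of the 8 neuron markers, STMN2, NEFL and NEFM were at 0 in all libraries, and the summed level spanned 5.29 to 5.49 TPM for Control, 1.95 to 2.82 for CTCFL-OE and 1.55 to 3.56 for CTCFL-KD. Of the 10 fibroblast markers, 1 in Control and 2 in CTCFL-KD reached 1 TPM, the summed level spanning 9.73 to 11.4 TPM in Control and 7.29 to 11.8 TPM in CTCFL-KD, and COL1A2 was at 0 in Control and averaged 13.9 CPM in CTCFL-KD. The 6 leukocyte markers summed to between 0.372 and 0.470 TPM in Control and between 2.89 and 3.11 TPM in CTCFL-KD, where CD14 alone averaged 2.46 TPM and CD68 and CD79A had no count. The part of these cell type markers in the results was not tested.

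A gene was called changed when its fold change passed 2 (a log2 fold change beyond 1) and its adjusted p was under 0.1 in CTCFL-OE or 0.05 in CTCFL-KD. All adjusted p-values are Benjamini-Hochberg values of the quasi-likelihood test of edgeR over 17794 tested genes, and errors of log2 fold changes are standard errors. In CTCFL-KD, 35 of the 136 channel genes were called higher (25.7%) and 7 lower (5.15%), as shares of the whole set, tested or not. Calls could fall only among the 77 tested channel genes, as 35 of 77 and 7 of 77. The shares of the whole set are therefore smaller than shares of tested genes and are not like those of all tested genes. Over all tested genes, 15.3% were called higher and 7.94% lower, 23.2% in all. In CTCFL-OE, 5 channel genes were called higher (3.68% of the 136) and 1 lower (0.735%), which is 5 of 77 and 1 of 77 tested. Of all tested genes, 1.37% were called higher and 0.702% lower, 2.07% in all. Of the tested channel genes, 42 had all 3 CTCFL-KD libraries above every Control library and 23 had all 3 CTCFL-OE libraries there, a pattern that 28.7% and 16.3% of all tested genes showed. All 3 lay below for 13 and 5, against 27.6% and 20.8%. Another 7 and 2 genes lay above, and 1 and 0 below, among those not tested. The median log2 fold change of the tested channel genes was 0.87 in CTCFL-KD and 0.33 in CTCFL-OE, and that of all tested genes 0.08 and -0.01. The medians and the counts of genes above Control include genes below the filter level in some Control libraries. Such genes could pass through a group where they are high, and the values were not computed without them. In CTCFL-OE, 28 channel genes had an unadjusted p under 0.05, of which 2 were two-pore-domain channels, 2 were activated by calcium or sodium, 3 were sodium channel genes and 2 were calcium channel genes. Over all tested genes, 17.7% had such a p. Neither the edgeR fit used here nor DESeq2 called a gene of those classes in CTCFL-OE. In other settings KCNT2 was called in 7, CACNB2 in 4, and 1 calcium and 2 sodium channel genes, CACNA2D2 and SCN4A among them, without CTCFL-OE replicate 1. The comparisons share their Control libraries, and whether a gene responds differently in them was not tested.

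Only 77 of the 136 genes had enough counts to be tested, and 19 of these were below the filter level in at least 1 Control library, so that they could pass through another group. These 19 supplied 13 of the 35 higher calls in CTCFL-KD, 2 of the 5 in CTCFL-OE and none of the lower calls. Among the 13 were CACNA1G, CACNA1I, KCNJ6, KCNJ13, KCNK13, KCNT1, KCNV1 and SCN9A. Of the other 59, 16 had no count in any library. These were CACNA1E, CACNG3, KCNA1, KCNA10, KCNA2, KCNA3, KCNC2, KCNE4, KCNE5, KCNH1, KCNK10, KCNK16, KCNK17, KCNK18, KCNU1 and SCN10A. The remaining 43 had between 1 and 64 counts summed over the 9 libraries, KCNJ4 being the highest. KCNA5, a potassium channel of heart and smooth muscle, was among them, with counts of 3, 8 and 3 for Control, 19, 4 and 3 for CTCFL-OE and 4, 5 and 7 for CTCFL-KD.

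**Figure D1:**
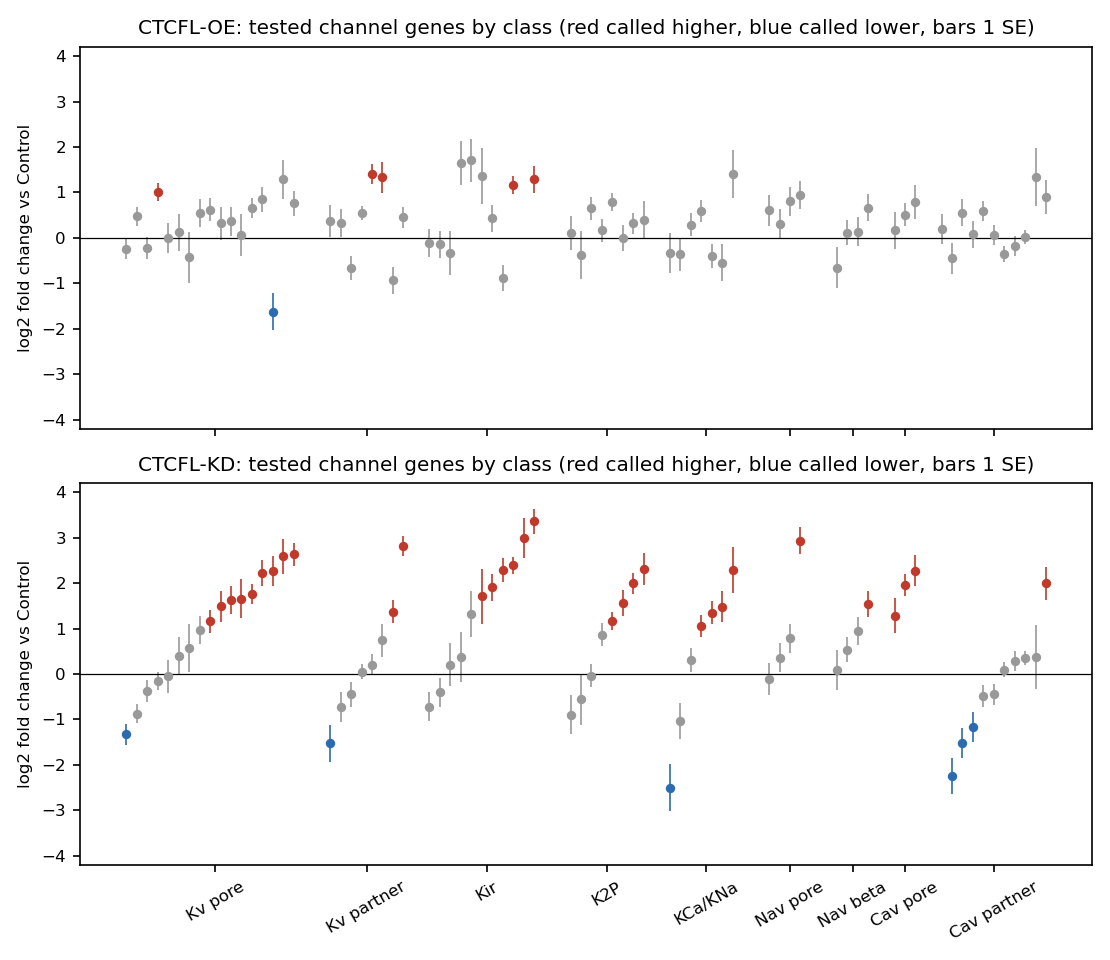
Log2 fold change against Control (y axis, bars 1 SE) of the tested channel genes, grouped by class on the x axis (Kir for inward rectifiers, K2P for two-pore-domain channels, KCa/KNa for potassium channels activated by calcium or sodium, Nav and Cav for sodium and calcium channels), in CTCFL-OE (top) and CTCFL-KD (bottom), with calls in red (higher) and blue (lower). In each panel 5 genes are left out because one of the groups had at most 3 counts in every library; called genes appear in all 9 classes in the bottom panel and are few in the top one.

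The inward rectifiers held the member with the largest ratio whose Control counts were not all 0, KCNJ13. KCNJ13 (ENSG00000115474.7, GRCh38 chr2:232765802-232776565, minus strand) encodes a channel of the apical membrane of retinal pigment epithelium and choroid plexus. It was counted 2, 1 and 0 times for Control, 3, 0 and 1 times for CTCFL-OE and 67, 87 and 113 times for CTCFL-KD. The gene was thus near or at the detection limit in the first 6 libraries and clearly counted in the last 3. The ratio of CTCFL-KD to Control was 126, with a 95% counting interval from 42.7 to 616 (adjusted p = 1.03e-05). KCNJ13 shares 810 exonic bases, 22.3% of its exonic length, with GIGYF2 on the opposite strand, and the strand setting of the counting is not given in the sources used here. GIGYF2 averaged 78.3 CPM for Control, 80.2 for CTCFL-OE and 68.9 for CTCFL-KD (log2 fold change -0.18 ± 0.24 after knockdown, adjusted p = 0.581). The part of that overlap in the counts of KCNJ13 was not tested.

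Promoter windows of RefSeq (GRCh38.p14, 250 bases before to 50 bases after an annotated start) were matched by symbol for 98 of the 136 genes, with 150 windows in all. The 7 letters AGGGGGC, part of the core that CTCF and CTCFL recognise, were searched on both strands, GCCCCCT being the reverse complement. They occurred in 40 windows of channel genes (26.7%), in 17.5% of the windows of protein-coding genes and in 14.4% of all 35116 windows. Of the windows of genes called higher in CTCFL-KD, 13 of 38 held the letters, as did 4 of 10 windows of genes called lower and 8 of 44 of tested channel genes that were not called. A match is only a description of the letters. The windows of KCNJ13, KCNJ5 and KCNK13, each called higher in CTCFL-KD and each with a single window, are shown to set one without the letters beside a pair that holds them, with matches in capitals. They lie at chr2:232776516-232776815 (minus strand), chr11:128891106-128891405 (plus strand) and chr14:90061744-90062043 (plus strand), and the match begins 185 bases before the start site in both KCNJ5 and KCNK13. Their G and C content was 43%, 72.7% and 67%.
KCNJ13: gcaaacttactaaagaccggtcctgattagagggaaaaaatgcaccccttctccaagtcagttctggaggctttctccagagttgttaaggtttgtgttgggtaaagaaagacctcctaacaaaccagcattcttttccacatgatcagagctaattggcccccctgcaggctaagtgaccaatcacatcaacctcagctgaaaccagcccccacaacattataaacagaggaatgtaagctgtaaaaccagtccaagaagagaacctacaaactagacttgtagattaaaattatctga
KCNJ5: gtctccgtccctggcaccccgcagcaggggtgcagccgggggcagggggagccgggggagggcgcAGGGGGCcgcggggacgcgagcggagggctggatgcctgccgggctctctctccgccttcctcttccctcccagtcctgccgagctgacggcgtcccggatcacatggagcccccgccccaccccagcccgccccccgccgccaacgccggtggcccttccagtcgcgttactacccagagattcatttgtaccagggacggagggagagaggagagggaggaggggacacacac
KCNK13: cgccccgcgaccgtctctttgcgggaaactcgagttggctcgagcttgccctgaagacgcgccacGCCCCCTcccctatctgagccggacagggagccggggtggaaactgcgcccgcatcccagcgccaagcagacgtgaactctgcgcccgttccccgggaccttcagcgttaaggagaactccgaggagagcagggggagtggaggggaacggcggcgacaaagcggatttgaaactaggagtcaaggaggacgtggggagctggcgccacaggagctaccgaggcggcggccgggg

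**Figure D2:**
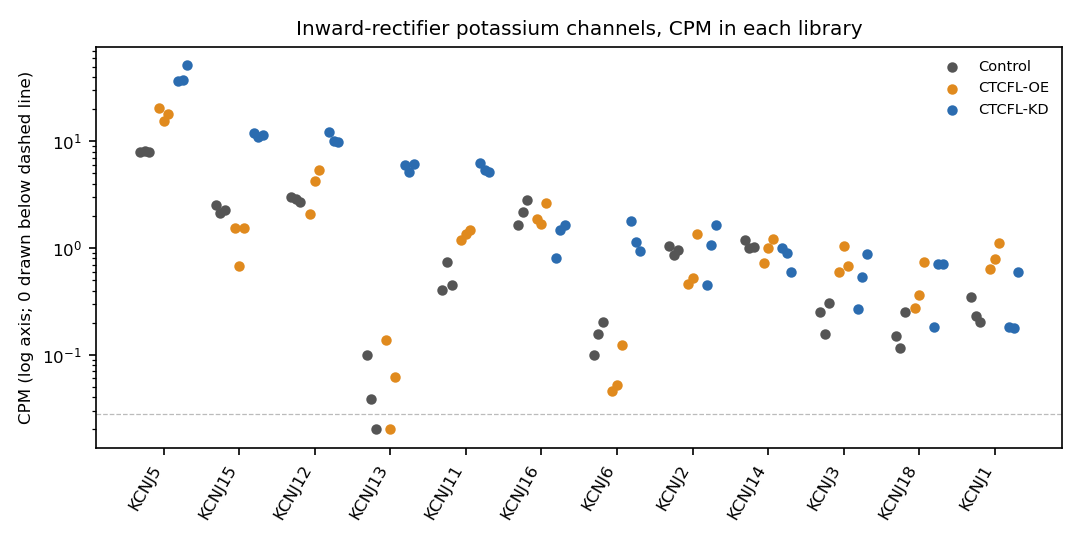
CPM (log axis) of the 12 tested inward rectifiers, with 1 point per library and colours for the 3 groups; libraries at 0 are drawn below the dashed line. The CTCFL-KD points of KCNJ13, KCNJ11, KCNJ5, KCNJ15, KCNJ12 and KCNJ6 all sit above the Control points, and among these 6 the CTCFL-OE points do so for KCNJ5 and KCNJ11 alone.

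Among the 16 inward rectifiers, 12 were tested, 7 were called higher in CTCFL-KD and none lower, and 2 were called higher in CTCFL-OE. Of all tested genes, 15.3% were called higher in CTCFL-KD and 1.37% in CTCFL-OE. KCNJ5, a G-protein-gated channel of heart and adrenal cortex, had 7.96, 8.04 and 8.002 CPM for Control, 20.4, 15.6 and 17.9 for CTCFL-OE and 36.8, 37.3 and 51.7 for CTCFL-KD. Both treated groups lay above Control without overlap. Its log2 fold change was 1.17 ± 0.19, adjusted p = 0.0205 in CTCFL-OE and 2.39 ± 0.20, adjusted p = 1.23e-05 in CTCFL-KD. KCNJ11 forms the pore of the ATP-sensitive potassium channel. KCNJ11 had 0.401, 0.738 and 0.456 CPM for Control, 1.19, 1.36 and 1.48 for CTCFL-OE and 6.31, 5.41 and 5.20 for CTCFL-KD. Its groups followed the same order as those of KCNJ5, again without overlap with Control. The log2 fold change of KCNJ11 was 1.29 ± 0.29, adjusted p = 0.0657 in CTCFL-OE and 3.36 ± 0.28, adjusted p = 1.24e-05 in CTCFL-KD. The call of KCNJ11 in CTCFL-OE held in 13 of 20 alternative settings, that of KCNJ5 in 17.

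KCNJ15, an inward rectifier of epithelia such as the kidney, had 2.55, 2.14 and 2.28 CPM for Control, 1.55, 0.679 and 1.54 for CTCFL-OE and 11.9, 10.9 and 11.4 for CTCFL-KD. It rose in CTCFL-KD (2.29 ± 0.26, adjusted p = 0.000109), and in CTCFL-OE its libraries lay below Control without a call (-0.88 ± 0.29, adjusted p = 0.158). KCNJ6, a G-protein-gated channel of neurons, had counts of 2, 4 and 4 for Control, 1, 1 and 2 for CTCFL-OE and 20, 19 and 17 for CTCFL-KD. Knockdown gave a log2 fold change of 2.98 ± 0.44, adjusted p = 0.000493. KCNJ6 and KCNJ15 are neighbours on chromosome 21, 34.2 kb apart, and both were called higher in CTCFL-KD. KCNJ12, a strong inward rectifier of heart and skeletal muscle, averaged 2.87 ± 0.165 CPM in Control and 10.8 ± 1.29 CPM in CTCFL-KD (log2 fold change 1.90 ± 0.30, adjusted p = 0.000716). Reads of KCNJ12 and its near-identical copy KCNJ18 cannot be separated with certainty, and KCNJ18 was called higher in only 8 of 20 alternative settings. KCNJ1, KCNJ2, KCNJ3, KCNJ14 and KCNJ16 were not called by edgeR in either comparison, although in CTCFL-OE KCNJ3 was called higher in 9 alternative settings, DESeq2 among them, and KCNJ1 in 8. In CTCFL-KD, KCNJ3 was called in 3 alternative settings. The summed level of the 16 genes was between 9.64 and 10.3 TPM for Control, 13.6 and 15.8 for CTCFL-OE, and 20.5 and 44.7 for CTCFL-KD, so the groups did not overlap. In bulk RNA, a change in the number of cells of a type and a change in RNA per cell cannot be told apart.

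Of the 40 pore-forming subunits of voltage-gated potassium (Kv) channels, 18 were tested, 10 were called higher and 1 lower in CTCFL-KD, and 1 was called in each direction in CTCFL-OE, against 15.3% and 7.94% of all tested genes in CTCFL-KD and 1.37% and 0.702% in CTCFL-OE. KCNQ1, which carries slow potassium currents in heart and transporting epithelia, had 0.901, 0.699 and 0.912 CPM for Control, 1.14, 1.46 and 1.66 for CTCFL-OE and 6.22, 4.58 and 4.88 for CTCFL-KD. The CTCFL-KD libraries stood several-fold above Control (2.63 ± 0.26, adjusted p = 3.59e-05), and those of CTCFL-OE lay just above Control without a call (0.76 ± 0.27, adjusted p = 0.187). KCNQ1 shares 121 exonic bases with the antisense transcript KCNQ1OT1, which averaged 8.12 CPM in Control and 7.01 CPM in CTCFL-KD.

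KCNQ3 contributes to the M-type current, a brake on neuronal firing. KCNQ3 had 1.45, 1.83 and 1.82 CPM for Control, 0.821, 0.418 and 0.369 for CTCFL-OE and 4.78, 9.75 and 10.02 for CTCFL-KD. Its libraries thus lay below Control in CTCFL-OE and above it in CTCFL-KD, without overlap on either side. It was the only channel gene called in opposite directions, with log2 fold changes of -1.62 ± 0.40, adjusted p = 0.0803 in CTCFL-OE and 2.27 ± 0.33, adjusted p = 0.000475 in CTCFL-KD. The call in CTCFL-OE held in 12 of 20 alternative settings and in 3 of the 9 that left out a library. KCNQ5, which also contributes to the M-type current, had 4.71, 4.51 and 5.27 CPM in Control and 13.5, 25.1 and 28.6 CPM in CTCFL-KD (2.22 ± 0.28, adjusted p = 0.000191). The lowest CTCFL-KD value of both KCNQ3 and KCNQ5 was that of replicate 1, the library that stood apart by gene length.

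KCNV1, a silent subunit that modifies other Kv channels, had no count in any Control or CTCFL-OE library and counts of 19, 58 and 92 in CTCFL-KD. Against the limit of 3 counts per library it was at least 24.4-fold higher in CTCFL-KD (adjusted p = 0.000501). KCNH2, the cardiac hERG channel that several tumours express, had 5.56, 5.09 and 3.95 CPM for Control, 5.79, 6.22 and 10.6 for CTCFL-OE and 10.9, 10.2 and 11.7 for CTCFL-KD. It was called higher in CTCFL-KD (1.16 ± 0.25, adjusted p = 0.00463), and with offsets for gene length and GC content its value fell just short of the fold threshold (0.94). KCNG1, KCNG3 and KCNH5 were also called higher in CTCFL-KD, with log2 fold changes from 1.63 to 1.76. KCNC4, a fast-inactivating channel, was the Kv pore subunit called lower, with 5.46, 4.93 and 5.98 CPM in Control and 1.71, 2.50 and 2.25 CPM in CTCFL-KD (-1.32 ± 0.23, adjusted p = 0.00130).

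KCNS1, another silent subunit, moved in CTCFL-OE. It had 26.7, 23.8 and 27.1 CPM for Control, 48.0, 43.7 and 65.8 for CTCFL-OE and 21.3, 21.2 and 27.2 for CTCFL-KD. The CTCFL-OE libraries lay above Control (1.02 ± 0.20, adjusted p = 0.0392), a call that held in 13 of 20 alternative settings and was lost with offsets for length and GC content, and the CTCFL-KD libraries overlapped Control (-0.15 ± 0.20, adjusted p = 0.564). KCNH3, an EAG-like channel of the brain and the most abundant Kv pore subunit per length in Control, had 48.9, 43.2 and 47.6 CPM in Control and was not called in either comparison. Its log2 fold change was -0.37 ± 0.23, adjusted p = 0.233 in CTCFL-KD.

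Among the 13 partner subunits of Kv channels, 2 were called higher and 1 lower in CTCFL-KD, and 2 were called higher in CTCFL-OE. Of the 13, 8 were tested. Among all tested genes, 15.3% were called higher and 7.94% lower in CTCFL-KD, and 1.37% higher in CTCFL-OE. KCNE1 assembles with KCNQ1 and slows its opening. KCNE1 had 2.85, 3.26 and 2.58 CPM for Control, 4.97, 3.71 and 3.196 for CTCFL-OE and 17.1, 20.6 and 23.8 for CTCFL-KD. It therefore rose in the same libraries as KCNQ1 (2.82 ± 0.23, adjusted p = 1.21e-05), and its CTCFL-OE libraries overlapped Control. KCNE3, a KCNQ1 partner of colon epithelium, averaged 0.896 ± 0.201 CPM in Control and 2.35 ± 0.217 CPM in CTCFL-KD (1.37 ± 0.26, adjusted p = 0.00212). KCNIP1, KCNIP2 and KCNIP3 encode calcium-binding partners of the Kv pores of the KCND family. KCNIP2 and KCNIP3 were called in CTCFL-OE only and KCNIP1 in CTCFL-KD only, and differences between these genes were not tested. KCNIP3, which also binds DNA as a repressor, had 5.26, 4.58 and 5.32 CPM for Control, 16.1, 11.0 and 13.0 for CTCFL-OE and 6.67, 4.40 and 6.46 for CTCFL-KD. It was called higher in CTCFL-OE (1.41 ± 0.22, adjusted p = 0.0164) and overlapped Control in CTCFL-KD. KCNIP2 had counts of 9, 14 and 12 in Control and 19, 29 and 28 in CTCFL-OE, where it was called higher (1.33 ± 0.34, adjusted p = 0.0868). That call held in 11 of 20 alternative settings and in 2 of the 9 that left out a library. KCNIP1 had 2.40, 2.49 and 2.89 CPM in Control and 0.992, 1.01 and 0.712 CPM in CTCFL-KD, where it was called lower (-1.52 ± 0.41, adjusted p = 0.0143).

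The 15 two-pore-domain channels, of which 8 were tested, had 4 members called higher in CTCFL-KD, against 15.3% of all tested genes. KCNK2, a leak channel opened by stretch and lipids, had 12.1, 10.8 and 12 CPM for Control, 17.8, 12.1 and 13.5 for CTCFL-OE and 33.4, 50.7 and 54.9 for CTCFL-KD. Its CTCFL-KD libraries lay clear of Control (2.00 ± 0.23, adjusted p = 0.000104). KCNK6, a leak channel also found in intracellular membranes, had 25.8, 26.1 and 25.9 CPM in Control and 114, 60.8 and 56.6 CPM in CTCFL-KD. It rose (1.57 ± 0.28, adjusted p = 0.00169), with replicate 1 of CTCFL-KD the highest library. KCNK5, an alkali-activated channel of kidney epithelium, had 6.21, 6.37 and 6.48 CPM for Control, 8.39, 12.4 and 12.4 for CTCFL-OE and 15.6, 14.9 and 12.3 for CTCFL-KD. It was called higher in CTCFL-KD (1.16 ± 0.20, adjusted p = 0.00124), but fell below the fold threshold with offsets for length and GC content (0.87). In CTCFL-OE its libraries lay above Control while the fold stayed under the threshold (0.80 ± 0.20, adjusted p = 0.0822). KCNK13, a halothane-inhibited leak channel, had counts of 5, 5 and 7 in Control and 15, 19 and 27 in CTCFL-KD (2.31 ± 0.35, adjusted p = 0.000611). KCNK15, the most abundant potassium channel gene per length in Control, had 48.9, 42.9 and 47.8 CPM for Control, 57.0, 63.8 and 98.7 for CTCFL-OE and 60.5, 36.0 and 39.9 for CTCFL-KD and was not called. KCNK15 shares 506 exonic bases, 20.1% of its exonic length, with RIMS4 on the opposite strand, which averaged 30.2 CPM in Control and 15.96 CPM in CTCFL-KD, and the part of that overlap in its level was not tested. KCNK1, a weak inward rectifier of the same family, had 8.21, 7.46 and 6.63 CPM in Control and 11, 14.03 and 15.5 CPM in CTCFL-KD and stayed under the fold threshold (0.87 ± 0.25, adjusted p = 0.0201).

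Of the 12 potassium channel genes activated by calcium or sodium, 8 were tested, and 5 were called higher and 1 lower in CTCFL-KD, against 15.3% and 7.94% of all tested genes. KCNMA1, the large-conductance calcium-activated channel, had 2.15, 1.86 and 2.23 CPM for Control, 1.28, 1.57 and 1.91 for CTCFL-OE and 4.24, 4.64 and 6.96 for CTCFL-KD (1.35 ± 0.26, adjusted p = 0.00222). KCNN4, the intermediate-conductance channel of epithelia and lymphocytes, had 6.51, 5.56 and 5.32 CPM for Control, 2.51, 4.91 and 6.51 for CTCFL-OE and 2.25, 0.416 and 0.657 for CTCFL-KD. These 2 calcium-activated channels therefore moved in opposite directions in CTCFL-KD, KCNN4 being called lower (-2.50 ± 0.52, adjusted p = 0.00369). KCNT1 and KCNT2 encode sodium-activated channels. KCNT1 had counts of 1, 0 and 0 in Control and 11, 17 and 10 in CTCFL-KD, a ratio of 53.9 with a 95% counting interval that begins at 9.10 (adjusted p = 0.000612). KCNT2 had counts of 7, 14 and 9 in Control and 9, 47 and 54 in CTCFL-KD (2.29 ± 0.50, adjusted p = 0.00487). Both were called higher. KCNN3 and KCNN1, small-conductance channels, were called higher too, with log2 fold changes of 1.48 and 1.06.

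The 10 pore-forming sodium channel genes, of which 5 were tested, included 2 called higher in CTCFL-KD, where 15.3% of all tested genes were. SCN4A, the sodium channel of skeletal muscle, had 1.10, 1.21 and 1.17 CPM for Control, 1.323, 2.61 and 2.83 for CTCFL-OE and 7.31, 10.1 and 9.31 for CTCFL-KD. Its CTCFL-KD libraries lay far above Control (2.94 ± 0.30, adjusted p = 4.58e-05). SCN9A, the channel of pain-sensing neurons, had no count in Control, counts of 0, 1 and 1 for CTCFL-OE and 8, 12 and 27 for CTCFL-KD. It was at least 6.96-fold higher in CTCFL-KD against the limit of 3 counts per library (adjusted p = 0.000584). Of the 4 sodium channel beta subunits, SCN4B was called higher in CTCFL-KD, with a mean of 1.30 ± 0.201 CPM in Control and 3.80 ± 0.480 CPM in CTCFL-KD (1.54 ± 0.29, adjusted p = 0.00194).

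Of the 10 pore-forming subunits of calcium channels, 3 were tested and all 3 were called higher in CTCFL-KD. Of these, CACNA1G and CACNA1I were below the filter level in at least 1 Control library, so that they could pass through another group. Of the 16 partner subunits, 11 were tested, 1 was called higher and 4 lower, against 15.3% and 7.94% of all tested genes, and the difference between the pore and partner subunits was not tested. CACNA1D, an L-type pore of endocrine cells and sinus node, had 3.26, 4.39 and 4.81 CPM for Control, 4.51, 6.32 and 7.01 for CTCFL-OE and 12.2, 17.8 and 18.5 for CTCFL-KD (1.96 ± 0.25, adjusted p = 0.00021). CACNA1D shares 1399 exonic bases with CHDH on the opposite strand, which rose too (log2 fold change 1.25), and the part of that overlap in the result was not tested. CACNA1G, a T-type pore, had counts of 7, 7 and 9 in Control and 20, 27 and 33 in CTCFL-KD (2.27 ± 0.34, adjusted p = 0.000541). CACNA1I, also a T-type pore, had a log2 fold change of 1.28 in CTCFL-KD. CACNA2D2, an extracellular partner subunit, was the partner called higher (1.99 ± 0.36, adjusted p = 0.00178).

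The partner subunits called lower were CACNG6, CACNG7, CACNG8 and CACNB4. CACNG7 and CACNG8 encode proteins that also accompany AMPA-type glutamate receptors, and CACNG6 a relative of the gamma subunit of muscle. CACNG7 had counts of 45, 39 and 36 for Control, 27, 41 and 50 for CTCFL-OE and 2, 3 and 2 for CTCFL-KD. Its ratio of CTCFL-KD to Control was 0.0827, with a 95% counting interval from 0.0326 to 0.176 (adjusted p = 0.00035). CACNG6 had 3.86, 5.79 and 4.56 CPM for Control, 2.33, 4.23 and 3.93 for CTCFL-OE and 1.80, 0.714 and 0.657 for CTCFL-KD. It fell (-2.24 ± 0.39, adjusted p = 0.00146), and so did CACNG8, with 4.16, 5.63 and 4.86 CPM in Control and 3.43, 1.49 and 1.81 CPM in CTCFL-KD (-1.17 ± 0.32, adjusted p = 0.0161). The call of CACNG8 was lost with the replicate number as a block in the fit of the 2 groups alone (adjusted p = 0.0501), and without replicate 2 of Control or replicate 2 or 3 of CTCFL-KD. CACNB4, a beta subunit of neurons, had 2.65, 2.18 and 3.75 CPM in Control and 0.541, 0.951 and 1.37 CPM in CTCFL-KD (-1.52 ± 0.33, adjusted p = 0.00488).

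CACNG7, CACNG8 and CACNG6 lie side by side on chromosome 19, at chr19:53909278-53943950, chr19:53962937-53990215 and chr19:53991637-54012666, all on the plus strand. Within 200 kb on either side, 14 other genes were tested, of which 9 were called higher and 1 lower in CTCFL-KD. CACNG4, a related gene on chromosome 17 and the most abundant channel gene in Control per length, was not called, with 121, 114 and 119.9 CPM in Control and 139.5, 118 and 121 CPM in CTCFL-KD (0.09 ± 0.17, adjusted p = 0.690). Of the other neighbouring channel genes, KCNJ5 was called higher in both comparisons while KCNJ1, 23.98 kb away, was called in neither.

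**Figure D3:**
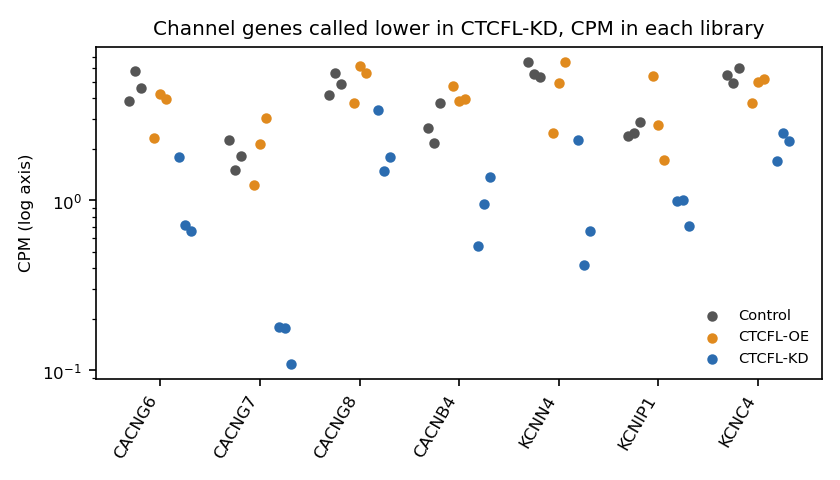
CPM (log axis) in each library of the 7 channel genes called lower in CTCFL-KD, with colours for the 3 groups. The CTCFL-KD points lie below all Control points for each gene, and the CTCFL-OE points overlap those of Control for all except CACNB4.

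Levels can be compared between genes only per length, in TPM. In Control, 32 of the 136 channel genes averaged at least 1 TPM. CACNG4 was highest (99.95 ± 1.73 TPM, SD, n = 3), followed by KCNK15 (56.0 ± 2.81 TPM), KCNH3 (31.3 ± 1.45 TPM), CACNB3 (20.8 ± 0.215 TPM), KCNS1 (13.9 ± 0.785 TPM) and KCNK6 (12.8 ± 0.362 TPM). CACNB3 is a beta subunit that brings calcium channel pores to the membrane. Each of these lay above the next in every Control library, except that KCNS1 and KCNK6 were not separated. CACNA2D3, an extracellular calcium channel subunit, had 9.69 ± 0.764 TPM, and KCNK2, KCNK1 and CACNG6 had 8.21, 6.38 and 5.75 TPM. From KCNK1 to KCNK5, neighbours in the order overlapped. No pore-forming subunit of a sodium or calcium channel reached 1 TPM in Control. CACNB3 and CACNA2D3 were not called in either comparison, with log2 fold changes of 0.36 ± 0.15, adjusted p = 0.0895 and 0.29 ± 0.22, adjusted p = 0.309 in CTCFL-KD.

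**Figure D4:**
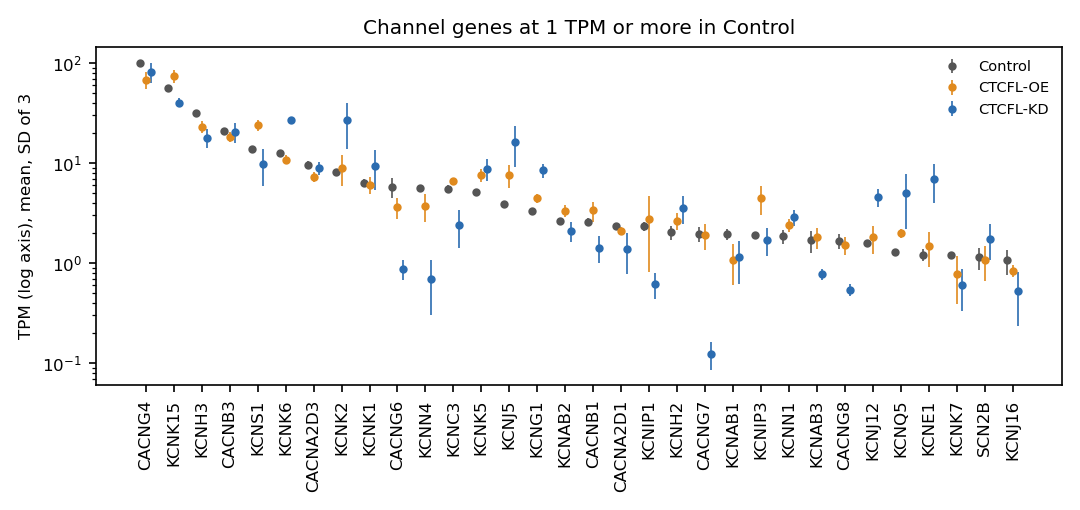
Mean level in TPM (log axis, bars SD of 3 libraries) of the 32 channel genes at 1 TPM or more in Control, ordered by Control, in the 3 groups. CACNG4, KCNK15 and KCNH3 lead in Control at 99.95, 56.0 and 31.3 TPM, and CACNG6, KCNN4 and CACNG7 fall furthest below their Control level in CTCFL-KD.

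The calls differed in how far they depended on single libraries. In CTCFL-KD, 37 of the 42 called channel genes were called whichever of the 9 libraries was left out, the exceptions being CACNA1I, CACNG8, KCNH5, KCNJ18 and KCNN1. Without CTCFL-KD replicate 1, 44 channel genes were called, 36 higher and 8 lower. The median exonic length was 6912 bases for the channel genes called higher in CTCFL-KD and 3366 for those called lower. It was 6191 for tested channel genes and 4564 for all tested genes, and the part of length in the calls was not tested. In CTCFL-OE, edgeR called no channel gene without Control replicate 1, 2 or 3, where 21, 18 and 21 had an unadjusted p under 0.05. In the same comparison 15 were called without CTCFL-OE replicate 1, 13 without CTCFL-KD replicate 1, 3 without CTCFL-OE replicate 2 and 2 without CTCFL-OE replicate 3. The number of genes called in CTCFL-OE over all genes moved in the same way, from 368 to 45, 61 and 44 without each Control library in turn and to 1184 without CTCFL-OE replicate 1.

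**Figure D5:**
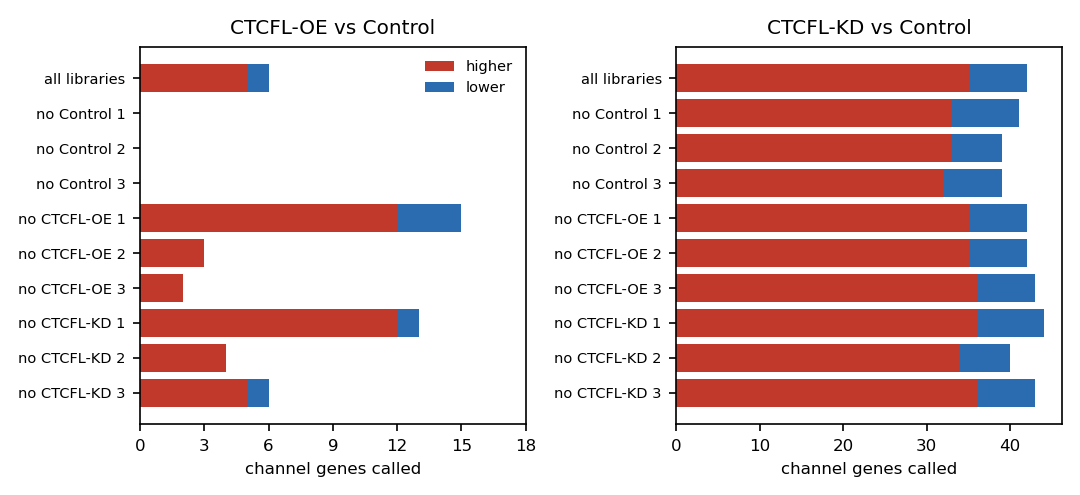
Number of channel genes called higher (red) and lower (blue) with all libraries and with each library left out, in CTCFL-OE (left) and CTCFL-KD (right). The count in CTCFL-OE moves between 0 and 15 around its value of 6, and that in CTCFL-KD between 39 and 44 around 42.

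Genes that work with these channels were listed apart from the set, as other cation and anion channels, pumps, exchangers and anchoring proteins, 76 in all, of which 57 were tested. In CTCFL-KD 12 of the 76 were called higher and 5 lower, and in CTCFL-OE 2 were called higher and none lower. Over all tested genes, 15.3% were called higher and 7.94% lower in CTCFL-KD, and 1.37% and 0.702% in CTCFL-OE. TRPV6, an epithelial calcium channel, rose in both, with means of 2.30 CPM for Control, 5.38 for CTCFL-OE and 18.3 for CTCFL-KD (log2 fold change 1.22 ± 0.27, adjusted p = 0.0607, and 2.99 ± 0.27, adjusted p = 2.63e-05). HCN3, a pacemaker channel, was the other one called in CTCFL-OE (1.19 ± 0.28, adjusted p = 0.0725). In CTCFL-KD, ORAI3, a store-operated calcium channel, rose by 1.97 ± 0.32 and SCNN1A, a subunit of the epithelial sodium channel, by 1.92 ± 0.21 on the log2 scale. Among those called lower were CATSPER1, a sperm calcium channel subunit, and STAC2, an adaptor of L-type calcium channels, which had at most 3 counts in every CTCFL-KD library. Their ratios to Control were 0.161, with a 95% counting interval from 0.0564 to 0.373, and 0.170, with one from 0.0596 to 0.397. SCNN1G, the gamma subunit of the epithelial sodium channel, was called lower too (-1.90 ± 0.43), so that 2 subunits of that channel were called in opposite directions.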

How the data were processed

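RNA-seq of OVCAR3 cells was analysed from 9 libraries. According to the methods, the authors trimmed low-quality reads, used STAR for alignment to GRCh38 and featureCounts for counting, and the submitters' processing notes list Trimmomatic, kallisto and featureCounts. The deposited values are raw counts per gene, without normalization. Groups were taken from the sample titles. The annotation release and the strand setting are not given in the sources used here. Symbols, positions and exonic lengths came from GENCODE release 44.

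Counts were filtered with filterByExpr (minimum count 10), scaled by TMM and fitted over all 9 libraries with glmQLFit of edgeR 4.0.16 in R 4.3.3, and both treated groups were tested against Control by the quasi-likelihood test with Benjamini-Hochberg adjustment over all tested genes. The thresholds for calls are those of the methods. CPM used TMM-scaled library sizes, and TPM used exonic lengths. Tables were made with Python 3.11.15, pandas 2.3.3 and scipy 1.17.1, and figures with matplotlib 3.10.9. The fits were tested on simulated data. Counting intervals are exact, at 95%, and cover counting error only, since reads carry no molecular identifiers.

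Same-numbered Control and CTCFL-KD libraries deviated together (correlations of 0.387, 0.218 and 0.275 over 11441 genes). Differently numbered ones had correlations from -0.388 to 0.164. Control and CTCFL-OE libraries did not deviate together for every number (-0.0424, 0.232 and -0.0471). The replicate numbers come from the sample titles, and whether they mark pairs was not tested. Alternatives were DESeq2 1.42.0, RLE and upper-quartile scaling, other filters, fits of the 2 groups compared, robust estimation off, the replicate block, offsets for length and GC content, and each library left out.

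Genes were named if they were KCNJ13, were called in CTCFL-OE, were among the 12 highest or 12 lowest called in CTCFL-KD with at least 1 CPM and no overlap with Control, were among the 10 highest in Control by TPM, or belonged to 12 genes fixed for their roles. Other genes, among them KCNG1, KCNQ5, KCNT1, KCNE3, SCN4B, CACNA2D2 and neighbours, were named after their values were seen. Of the partner genes, up to 3 called in each direction were named. The members and all lists were chosen with earlier results of these data known. Some genes that these rules name are not reported here.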

Additional observations from a re-analysis of the deposited data

How the results depend on the processing

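In CTCFL-OE, where 6 channel genes were called, 10 were called with no low-count filter, 3 with at least 10 counts in every library, 10 with the 2 groups compared, 2 with the replicate block (KCNJ5 and KCNIP3, with KCNJ11, KCNIP2, KCNQ3 and KCNS1 lost), 10 with the replicate block and 2 groups, and between 0 and 15 with one library left out. Over all genes, 826 were called with no low-count filter, 835 with the 2 groups compared, 817 with the replicate block and 2 groups, 572 with length and GC offsets, and between 44 and 1184 with one library left out. Channel partner genes called numbered 4 with no low-count filter, 5 with the 2 groups compared, 4 with the replicate block and 2 groups, 4 with length and GC offsets, and between 0 and 6 with one library left out. In CTCFL-KD, 24 channel genes were called with at least 10 counts in every library, a filter that removes genes low in any group, and between 39 and 44 with one library left out. The log2 fold change of CTCFL in CTCFL-OE lay between 2.13 and 2.98 with one library left out and missed the threshold without Control replicate 1, 2 or 3 (2.59, 2.65 and 2.95). In CTCFL-KD it lay between -5.88 and -3.21 and missed it without CTCFL-KD replicate 3 (-3.21).

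Values near 0 that were not called changed sign, and for those that did so without a single library the range over libraries left out is given. In CTCFL-OE these were CACNB3 (-0.10 with length and GC offsets, with and without the replicate block, and from -0.0023 to 0.054 without single libraries), CACNG7 (-0.0046 with the replicate block and offsets, and from -0.15 to 0.48 without single libraries), CACNG8 (-0.018 and -0.017 with offsets, and from -0.070 to 0.27 without single libraries), KCNIP1 (from -0.20 to 0.66) and KCNK1 (from -0.14 to 0.37) without single libraries, and KCNK6 (0.0093 with RLE scaling, 0.048 with upper-quartile scaling, 0.021 with at least 10 counts in every library, 0.038 with 2 groups, 0.0058 and 0.0098 with the replicate block on 3 and 2 groups, and from -0.21 to 0.16 without single libraries). In CTCFL-KD these were CACNG4 (-0.20 with offsets) and KCNK15 (from -0.29 to 0.11 without single libraries). The cause of these changes was not tested.

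Same-numbered Control and CTCFL-KD libraries deviated together, but whether the numbers mark pairs was not tested. The replicate block left 42 channel genes called in CTCFL-KD (40 with 2 groups, where CACNG8 and KCNJ18 were lost). Of the 42, 19 were called under all 20 alternatives. The depth limits genes near 3 counts per library, and 59 channel genes could not be tested.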
